A study of Mus musculus with 26 samples.

Results

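Wild-type luminal epithelial cells of the mouse mammary gland were compared between 12 and 3 months of age, in 4 of the 26 RNA sequencing libraries of the series. The members were chosen by their labels alone. The 3-month libraries came from pools F79 and F81 and the 12-month libraries from pools A1 and A2, with no pairing between ages. Strain B6.129S1 was shared by all libraries. For every pool, cells of 3 mice were combined and sorted on EpCAM and CD49f, an epithelial adhesion protein and an integrin chain, after the glands had been minced and frozen. Other libraries of these 4 pools held basal and stromal cells of the same mice. Luminal cells were also sorted from Snai2-LacZ/LacZ mice, which lack functional Snai2, at 3 months (pools F82 and F84) and 12 months (pools A5 and A6). Each age had 2 luminal libraries, and no pool contributed to both ages, so age and pool cannot be told apart. Spread between pools, and not between mice, is what the p-values rest on.

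Luminal cells line the ducts and alveoli of the gland and lie inside a layer of contractile basal, or myoepithelial, cells. They comprise hormone-sensing cells, which carry the oestrogen and progesterone receptors, and secretory cells, which make milk proteins when stimulated by prolactin. Keratins 8 and 18 mark the luminal lineage, and keratins 5 and 14 the basal lineage.

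The label of the sorted cells was checked against these markers. Levels are given as CPM, counts scaled to a common library size and composition, and per-library values are listed in the order F79, F81, A1, A2. Krt8 stood at 742, 454, 651 and 506 CPM, and Krt18 at 947, 567, 760 and 644 CPM. Krt14 stood at 23.1, 45.3, 6.22 and 9.68 CPM and Krt5 at 26.5, 52.2, 11.8 and 9.1 CPM, so the basal keratins lay far below the luminal ones in all 4 libraries and were highest in F81. None of the 14 luminal epithelial genes on the list (keratins, claudins, Epcam, Cdh1 and others) passed the test for a change with age. Their median log2 fold change was 0.12, and their summed level was 6091, 4285, 5509 and 5311 CPM. The targeted gene of the null line, Snai2, lay at 1.13, 2.18, 1.2 and 0.774 CPM.

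Totals of the 4 luminal libraries ran from 5523449 to 6751898 counts, within the 2951035 to 16649904 of the series, and between 18186 and 18808 genes were detected in each. Ribosomal RNAs of the mitochondria made up 29.8% and 31.8% of the counts at 3 months and 34.6% and 48.0% at 12 months. The 12-month pair was less alike than the 3-month pair: A1 and A2 differed by more than 4-fold in 716 of the 17234 genes tested, and F79 and F81 in 190. Pearson's r across genes was 0.943 and 0.969 (log2 CPM, with genes that are not independent replicates).

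Between 3 and 12 months, 85 genes rose in luminal cells and 30 fell. These are 0.493% and 0.174% of the 17234 genes tested, and the 115 together are 0.667%. A call is an adjusted p under 0.05 by the quasi-likelihood test of edgeR, adjusted by the method of Benjamini and Hochberg, which gave every adjusted p below. The median log2 fold change of all genes tested was 0. Pdk4, Fam46c, Dck and Ctgf were among the largest rises, and 5 immediate-early, 4 unfolded protein response and 3 heat-shock genes were among the 85. The 30 fallen genes included 3 of the matrix, 2 of the fibroblast and 1 of the basal list. Fold changes below are log2 values ± SE.

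**Figure D1:**
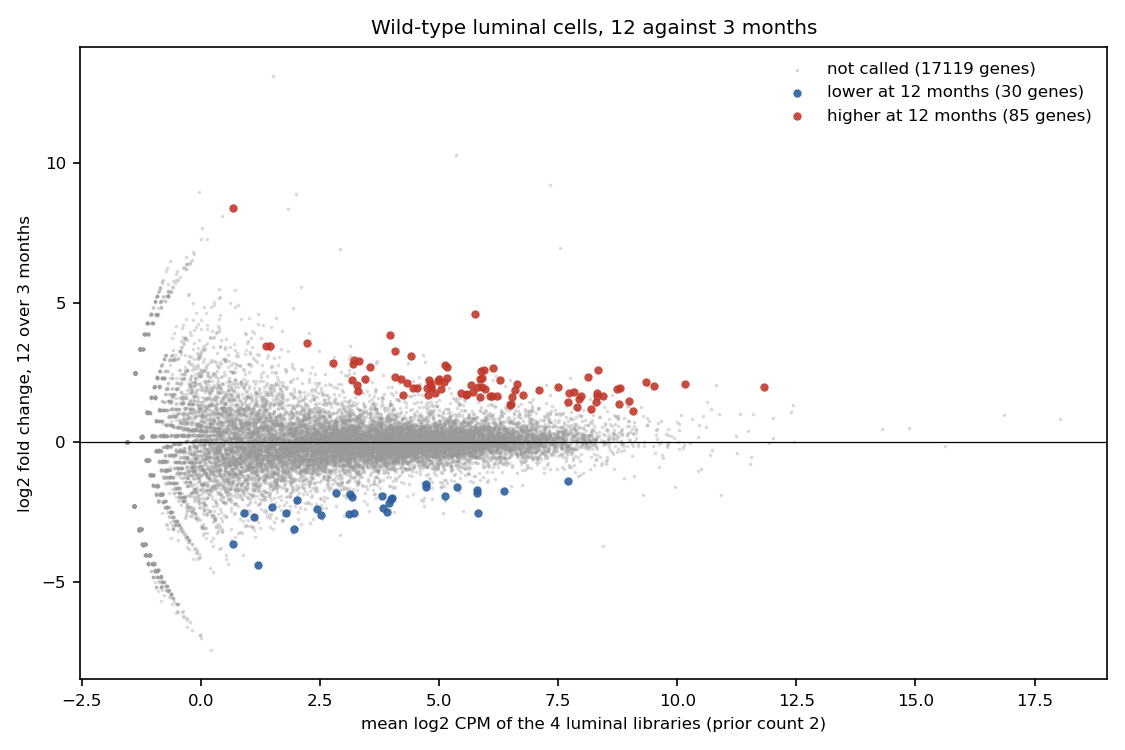
Log2 fold change of wild-type luminal cells (12 over 3 months, vertical axis) against the mean log2 CPM of the 4 libraries (horizontal axis), 1 point per gene tested. The 85 genes that rose (red) and the 30 that fell (blue) span low and high levels, and the others (grey) spread widely at low levels.

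The number of genes called rested on single libraries. With A1, A2, F79 or F81 left out, 11, 2, 13 and 1 genes were called, and none of the 115 passed in all 4 of these fits. With scaling by RLE size factors in place of TMM the calls split into 54 higher and 32 lower, and 31 of the 115 were lost. With mitochondrial genes left out, 29 of the 115 were lost. The rises of Hbegf, Dusp1, Hsp90aa1, Acsl1 and H2-K1 were lost in both of these fits, and that of Cited2 with RLE. A limma voom fit called 49 genes (46 higher and 3 lower) without a block for the pool and 47 (44 higher and 3 lower) with it. Of the 85 rises, 41 passed in the voom fit with the block and 44 did not. Among those lost were Ctgf, Stmn1, Id2, Cited2, Dusp1, H2afx and Dnajb9, with voom adjusted p-values from 0.0511 (Dnajb9) to 0.177 (Stmn1). Of the 30 falls, 2 passed in the voom fit with the block, Pfkfb3 and Itpripl2. With all 26 libraries in the fit, which adds a pair from A5 whose markers go against their labels, only Pdk4, Fam46c and Igsf10 were called. None of the 115 changed sign in any of these fits.

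Pdk4 (ENSMUSG00000019577, GRCm38 chromosome 6, 5483351 to 5496309, minus strand) encodes a kinase that inhibits pyruvate dehydrogenase and so limits glucose oxidation. Its level was 4.36 and 20.1 CPM at 3 months and 311 and 290 CPM at 12 months. Both 12-month libraries stood far above both 3-month ones, although the 3-month pair differed several-fold between themselves. The change was 4.62 ± 0.65 (adjusted p = 0.00545). It passed in 3 of the 4 fits with 1 library left out, at 3.86 without F79 and 6.03 without F81, and missed the threshold without A2. It also missed in the fit of the 4 libraries compared alone (adjusted p = 0.074).

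Fam46c (ENSMUSG00000044468, chromosome 3, 100451628 to 100489324, minus strand) encodes a cytoplasmic poly(A) polymerase. Its level was 4.19, 3.69, 62.2 and 52.3 CPM, with tight pairs at both ages, and the change was 3.85 ± 0.51 (adjusted p = 0.00344). This was the smallest adjusted p of the comparison, and the call was lost without F81. Pdk4 and Fam46c are 2 of the 3 risen members of a list of 22 genes known to respond to glucocorticoids or FOXO factors. The third was Cited2, a transcriptional co-regulator (13.7, 18.6, 87.3 and 72.8 CPM, 2.31 ± 0.49, adjusted p = 0.031). The list as a whole had a median of 0.30, and well-known glucocorticoid targets in it were not called, with -0.41 ± 0.43 for Fkbp5, -0.52 ± 0.44 for Tsc22d3 and -0.31 ± 0.33 for Per1.

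Among growth factors and their receptors, Ctgf, which encodes a matrix-associated protein and is a target of YAP, had 4.68 and 5.88 CPM at 3 months and 51.4 and 50.3 CPM at 12 months (3.26 ± 0.61, adjusted p = 0.0165). It was the 1 risen gene of 15 YAP and TEAD targets, whose median was 0.01. Axl, a receptor tyrosine kinase on the same list, fell by 1.91 on the log2 scale (20.6, 33.1, 8.83 and 5.42 CPM, adjusted p = 0.0159). Hbegf, a ligand of the EGF receptor, stood at 25.3, 31.1, 229 and 130 CPM (2.67 ± 0.59, adjusted p = 0.0428), the 1 called gene of 15 in the EGF family list. Efnb2, a membrane-bound ligand of Eph receptors, stood at 13.1, 14.6, 93.7 and 86.5 CPM (2.70 ± 0.41, adjusted p = 0.00545). Fzd5, a Wnt receptor, stood at 22.7, 25.9, 164 and 124 CPM (2.57 ± 0.38, adjusted p = 0.00545), and none of the 16 genes on the Wnt list, from which it is absent, was called. Id2, an inhibitor of helix-loop-helix factors, was the 1 called gene of 16 in the TGF-beta and BMP list (4.68, 4.87, 27.5 and 18.6 CPM, 2.27 ± 0.47, adjusted p = 0.0257). For each of these risen genes both 12-month libraries lay above both 3-month ones.

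Immediate-early genes, whose transcription starts within minutes of a stimulus, made up the list with the most risen members. Of its 23 genes 5 rose and none fell, 21 had both 12-month libraries above both 3-month libraries (22% of all genes tested did), and the median log2 fold change was 1.21. Their summed level was 8024 and 8031 CPM at 3 months and 27210 and 22070 CPM at 12 months. Fosb and Jun, subunits of the AP-1 transcription factor, stood at 1758, 1952, 8635 and 5916 CPM (1.97 ± 0.40, adjusted p = 0.0205) and at 548, 571, 2566 and 2205 CPM (2.09 ± 0.42, adjusted p = 0.0205). Klf4, a zinc-finger factor of epithelial differentiation, stood at 146, 106, 736 and 535 CPM (2.33 ± 0.42, adjusted p = 0.0159). Dusp1, a phosphatase that switches off MAP kinases, stood at 330, 398, 1782 and 1204 CPM (2.04 ± 0.45, adjusted p = 0.037), and Ier5 was the fifth (1.81 ± 0.35, adjusted p = 0.0165).

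Other members of the list had changes of similar size that did not pass. Fos stood at 399, 274, 1097 and 1625 CPM (2.02 ± 0.60, adjusted p = 0.209) and Egr1 at 897, 867, 3223 and 4173 CPM (2.07 ± 0.63, adjusted p = 0.22). The exceptions in direction were Fosl2 (-0.53 ± 0.28) and Egr3 (-0.58 ± 0.39), neither called. Genes of this kind are also known to respond to the dissociation of tissue. Whether the handling of the glands differed between the pools was not tested.

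Genes of the unfolded protein response, by which cells answer misfolded protein in the endoplasmic reticulum, rose in 4 of 14 cases, with none falling and a median of 0.98. Hspa5 (ENSMUSG00000026864), the main chaperone of the endoplasmic reticulum also called BiP, had 314 and 298 CPM at 3 months and 1520 and 1245 CPM at 12 months (2.18 ± 0.43, adjusted p = 0.0182). Its co-chaperone Dnajb9 stood at 25.3, 24.2, 106 and 100 CPM (2.06 ± 0.40, adjusted p = 0.0165). Atf4, the transcription factor of the integrated stress response, stood at 136, 147, 495 and 404 CPM (1.67 ± 0.35, adjusted p = 0.0257). Chac1, an enzyme that breaks down glutathione and an ATF4 target, had no count in either 3-month library and 34 and 39 counts in A1 and A2. With the 3-month group set to 3 counts in all, it was at least 29.1-fold higher at 12 months (adjusted p = 0.0159, a bound for counting error only). Ppp1r15a, outside the list, encodes the phosphatase subunit that reverses translational arrest in this pathway and stood at 53.6, 44.2, 258 and 156 CPM (2.08 ± 0.38, adjusted p = 0.0159).

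Other members of the list were not called. Herpud1 (1.80 ± 0.43, adjusted p = 0.0576) and Ddit3 (1.89 ± 0.48, adjusted p = 0.0823) lay just short of the threshold. Xbp1, the transcription factor of the IRE1 branch, stood at 110, 89.6, 116 and 107 CPM (0.15 ± 0.42), with the ages overlapping, and the disulphide isomerase gene Pdia4 gave -0.01 ± 0.31. The summed level of the list was 1356, 1342, 3475 and 3081 CPM, with no overlap between ages.

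The promoters of 4 of the risen genes named above are shown, picked because each holds a motif that was searched for. Each window is the 250 bases before the gene's start in RefSeq (GRCm38.p6), read 5′ to 3′ on the gene's strand, with the motif in capitals. The windows lie at chr2:34771840-34772089 (plus strand) for Hspa5, chr2:119350992-119351241 (plus) for Chac1, chr7:45526269-45526518 (minus) for Ppp1r15a and chr17:26508473-26508722 (minus) for Dusp1.
Hspa5: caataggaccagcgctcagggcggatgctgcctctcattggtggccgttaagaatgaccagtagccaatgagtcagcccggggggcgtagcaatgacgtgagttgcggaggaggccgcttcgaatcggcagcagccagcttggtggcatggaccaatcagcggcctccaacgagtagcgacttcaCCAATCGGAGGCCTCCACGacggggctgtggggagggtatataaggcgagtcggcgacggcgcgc
Chac1: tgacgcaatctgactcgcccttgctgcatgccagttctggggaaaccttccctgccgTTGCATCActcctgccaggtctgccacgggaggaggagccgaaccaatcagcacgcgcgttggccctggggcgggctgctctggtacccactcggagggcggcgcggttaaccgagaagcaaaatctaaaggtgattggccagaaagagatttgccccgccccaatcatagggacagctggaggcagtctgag
Ppp1r15a: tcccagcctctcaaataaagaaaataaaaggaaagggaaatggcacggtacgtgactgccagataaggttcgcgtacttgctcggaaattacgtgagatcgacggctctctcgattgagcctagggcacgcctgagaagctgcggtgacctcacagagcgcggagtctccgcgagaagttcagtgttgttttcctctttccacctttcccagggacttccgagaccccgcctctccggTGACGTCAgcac
Dusp1: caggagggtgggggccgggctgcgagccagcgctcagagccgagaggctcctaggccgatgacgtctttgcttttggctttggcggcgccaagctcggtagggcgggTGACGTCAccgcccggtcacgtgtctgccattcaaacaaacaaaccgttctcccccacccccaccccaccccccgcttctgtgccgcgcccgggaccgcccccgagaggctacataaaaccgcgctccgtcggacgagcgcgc
The capitals in Hspa5 are the ER stress element (CCAAT and CCACG with 9 bases between), which 0.113% of 32851 promoter windows hold on either strand. Those in Chac1 are the C/EBP-ATF response element (TGATGNAA, here on the opposite strand), held by 3.45% of windows and by 2 of the 65 risen genes (3.08%), the other being Matn4. Those in Ppp1r15a and Dusp1 are the cAMP response element (TGACGTCA), held by 1.55% of windows and by 5 of the 65 risen genes with a window, or 7.69%, of which the others are Cnnm4, Gk5 and Zfand2a. The AP-1 site (TGANTCA) was held by 6.75% of windows and 3 of the 65 risen genes, and the heat-shock element (GAA, TTC and GAA, each 2 bases apart) by 0.466% of windows and none of the 65. The CArG box (CC and GG around A or T bases) was held by 1.47% of windows and 1 of the 65 risen genes (1.54%, Mknk2). Of the 25 fallen genes with a window, 1 held it (Myl9). The share of windows counts every window, while a risen or fallen gene was counted if any of its windows held the motif. The shares are therefore not on the same basis, and the share over all genes was not computed. A match is a description of the letters and does not show that a factor binds there.

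Cytosolic heat-shock genes rose in 3 of 13 cases, and 12 of the 13 had both 12-month libraries above both 3-month ones (22% of all genes tested did). The chaperone gene Hspa8 stood at 213, 178, 609 and 615 CPM (1.65 ± 0.29, adjusted p = 0.0159), and its co-chaperone Dnaja1 at 172, 187, 591 and 533 CPM (1.65 ± 0.33, adjusted p = 0.0187). Hsp90aa1, the inducible form of HSP90, stood at 190, 188, 521 and 507 CPM (1.44 ± 0.32, adjusted p = 0.0359). The inducible Hspa1a and Hspa1b had larger fold changes, 2.23 ± 0.60 and 2.25 ± 0.61, that did not pass (adjusted p = 0.134 each). These 2 genes are near-identical, so reads could have been split between them. Of 15 oxidative stress genes none was called, and Hmox1, the haem-degrading enzyme, stood at 8.71, 7.39, 88.1 and 27.7 CPM (2.84 ± 0.73, adjusted p = 0.115).

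**Figure D2:**
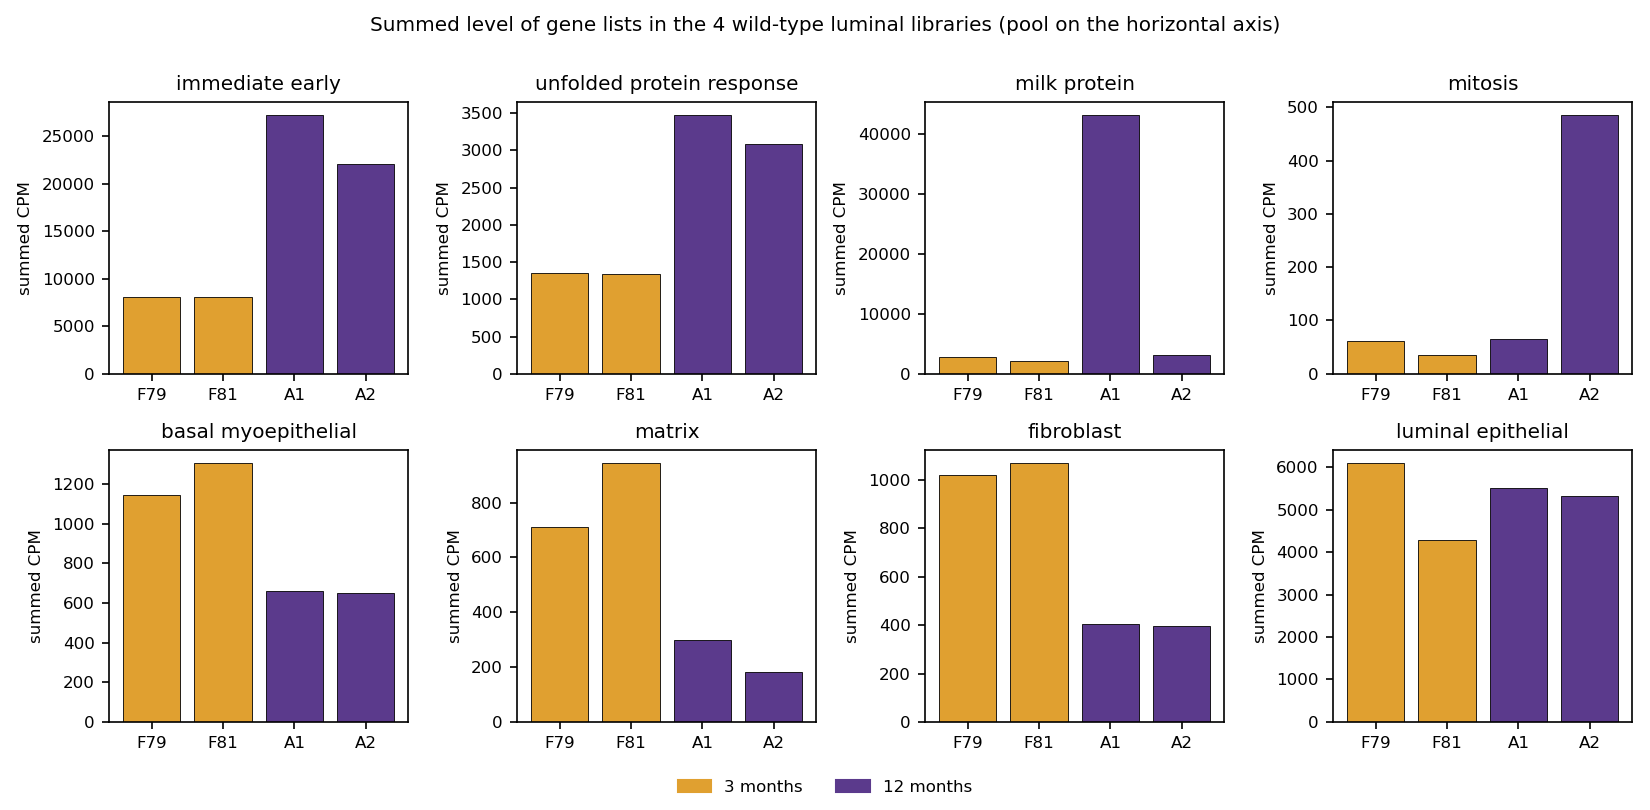
Summed CPM (vertical axis, from 0) of 8 gene lists in each wild-type luminal library, with the pool on the horizontal axis and age by colour. Immediate-early and unfolded protein response genes were high in both 12-month libraries, milk protein genes in A1 and mitosis genes in A2.

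Several risen genes act in replication and chromatin. Pcna, the sliding clamp of DNA polymerase, stood at 29.4, 34.9, 130 and 113 CPM (1.92 ± 0.30, adjusted p = 0.00545). Dck, which phosphorylates deoxynucleosides for salvage, stood at 1.77, 0.672, 14.4 and 14.9 CPM (3.56 ± 0.72, adjusted p = 0.0205). Both had similar levels in A1 and A2, and they were the 2 risen genes of 22 on the replication list, whose median was 1.44. The list as a whole was highest in A2, with a summed level of 159, 142, 251 and 430 CPM. The histone variant genes H2afz and H2afx also rose, at 94.5, 90.5, 270 and 461 CPM (1.98 ± 0.35, adjusted p = 0.0159) and 14.8, 10.6, 53.6 and 66.8 CPM (2.24 ± 0.45, adjusted p = 0.0205). Nasp, a histone chaperone, stood at 31.9, 38.9, 167 and 170 CPM (2.25 ± 0.35, adjusted p = 0.00545). Reads of Pcna, H2afz and Hspa8 may be shared with processed copies of these genes.

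The mitosis genes were high mainly in A2. The 19 mitosis genes had a summed level of 62.1, 34.8, 65.4 and 485 CPM, so that by this sum A1 lay near the 3-month libraries. By gene, 9 of the 19 had both 12-month libraries above both 3-month ones (22% of all genes tested did). Mki67, a marker of cycling cells, stood at 17.4, 8.39, 12 and 212 CPM, and the topoisomerase gene Top2a at 2.58, 4.53, 5.42 and 72.2 CPM. Neither passed (adjusted p = 0.714 and 0.421). Stmn1, a microtubule-destabilising protein, was the 1 called gene of the list and also leaned on A2, at 4.52, 2.35, 14.4 and 38.9 CPM (2.95 ± 0.65, adjusted p = 0.0368). The list's median log2 fold change was 2.63. Cdkn1a, the p53-induced cell cycle inhibitor, stood at 176, 190, 419 and 291 CPM (0.96 ± 0.34, adjusted p = 0.339). None of 16 p53 targets and none of 17 tested genes of the senescence-associated secretory list was called. Cdkn2a, a gene used as a mark of senescence, had 3, 4, 0 and 0 counts and was too low to be tested.

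Milk protein genes were far higher in A1 than in the other 3 luminal libraries. The beta-casein gene Csn2 stood at 6.45 and 27.7 CPM at 3 months, at 20448 CPM in A1 and at 173 CPM in A2 (9.24 ± 3.22, adjusted p = 0.396). Csn1s2a, another casein gene, stood at 2.74, 3.69, 8081 and 28.5 CPM, and Csn3 at 1172, 906, 4323 and 1317 CPM. The summed level of the 14 genes was 2721, 2141, 43067 and 3092 CPM, none was called, and the median log2 fold change was 2.38. Of the 14, 8 had both 12-month libraries above both 3-month ones (22% of all genes tested did). The mean log2 CPM over the list was 4.44, 4.38, 8.98 and 5.19, so A2 also lay above the 3-month libraries, by far less than A1. Of the 19 secretory luminal genes, a list that shares caseins with it, none was called. Elf5 and Kit, a transcription factor and a receptor of secretory progenitors, gave 0.12 ± 0.65 and 0.03 ± 0.65.

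None of the 13 hormone-sensing genes was called, and their median was -0.51. Only 1 of the 13 had a positive fold change. Both 12-month libraries lay below both 3-month ones for 7 of the 13 (21.9% of all genes tested did) and above them for 0. The oestrogen receptor gene Esr1 stood at 143, 161, 86.5 and 87.5 CPM (-0.80 ± 0.59, adjusted p = 0.894). The progesterone receptor gene Pgr stood at 488, 397, 61.2 and 329 CPM (-1.18 ± 0.84, adjusted p = 0.883) and Areg, an oestrogen-induced EGF receptor ligand, at 479, 334, 79.3 and 272 CPM. Both were lowest in A1, the pool with high caseins, and Prlr, the prolactin receptor, was also lowest there (3894, 3300, 2095 and 2960 CPM). In bulk samples a smaller share of hormone-sensing cells and less RNA per cell cannot be told apart.

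**Figure D3:**
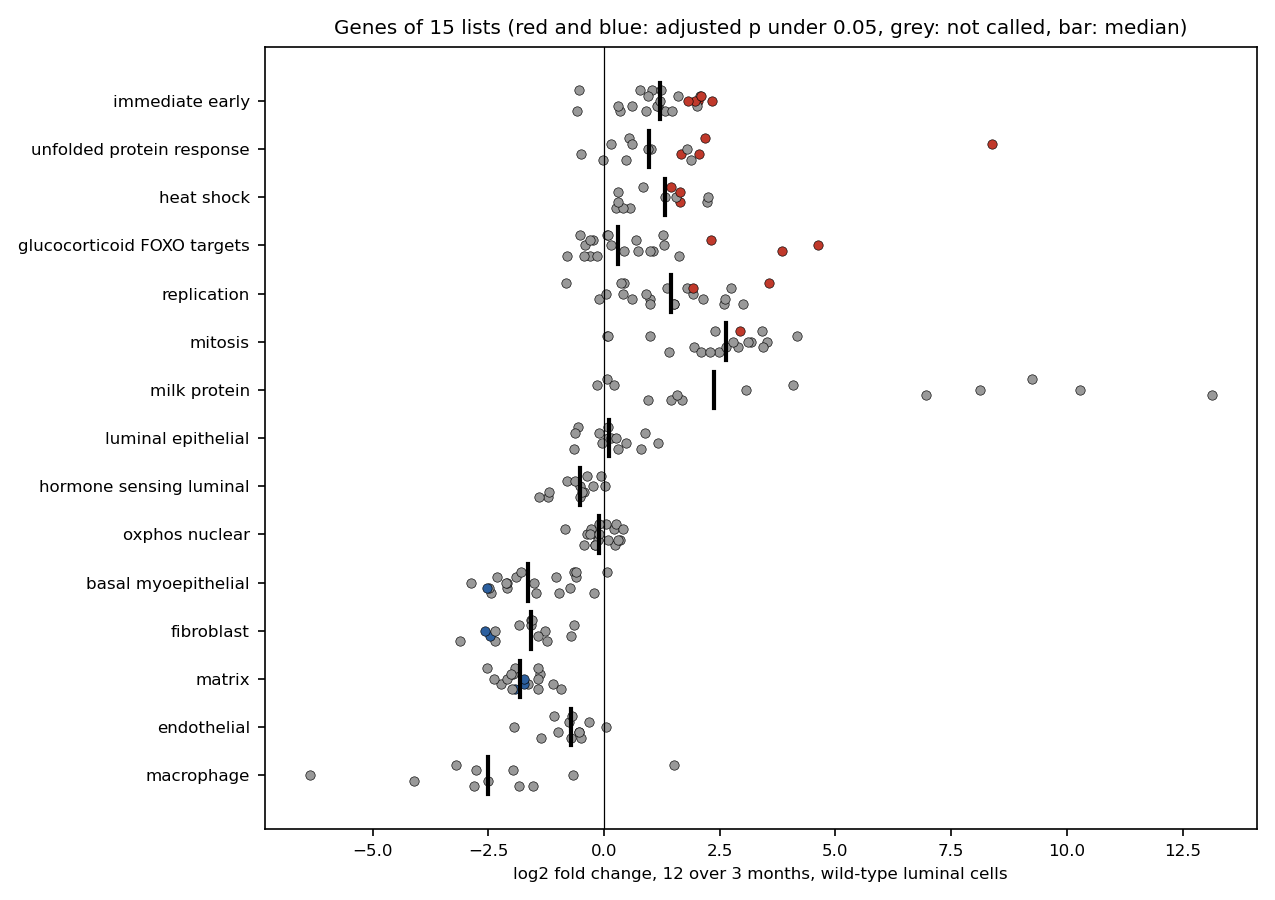
Log2 fold change with age (12 over 3 months, horizontal axis) of each tested member of 15 gene lists (rows), with called genes in red or blue, others in grey and a black bar at the median. Immediate-early, unfolded protein response and heat-shock genes lie to the right and matrix, basal and fibroblast genes to the left, while few members of any list passed.

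The fallen genes included a pair of contractile genes. Myh11, smooth-muscle myosin heavy chain, stood at 94.7 and 184 CPM at 3 months and at 29.1 and 19 CPM at 12 months (-2.53 ± 0.53, adjusted p = 0.0345). Myl9, a myosin light chain, stood at 17.6, 26.2, 4.61 and 2.9 CPM (-2.54 ± 0.52, adjusted p = 0.0263). With an estimated correlation within pools, limma voom gave an adjusted p = 0.134 for Myh11 and 0.4 for Myl9. Myh11 was the 1 called gene of 20 on the basal list, whose median was -1.65 and of which 15 had both 12-month libraries below both 3-month ones, against 21.9% of all genes tested. The summed level of the list was 1147 and 1304 CPM at 3 months and 661 and 649 CPM at 12 months. Acta2, smooth-muscle actin, gave -2.45 ± 0.60 (90.5, 123, 14.6 and 24.4 CPM, adjusted p = 0.089) and Krt14 -2.10 ± 1.03 (adjusted p = 0.679).

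Matrix and fibroblast genes fell in 5 cases. Of 18 matrix genes Bgn, Postn and Sparc fell, and all 18 had both 12-month libraries below both 3-month ones (21.9% of all genes tested did). Sparc, a collagen-binding protein, stood at 115, 192, 52.2 and 40.3 CPM (-1.73 ± 0.36, adjusted p = 0.0257), Postn (periostin) at 73.6, 132, 36.5 and 25.7 CPM (-1.72 ± 0.34, adjusted p = 0.0203) and Bgn (biglycan) at 48.4, 90, 19.5 and 17.2 CPM (-1.91 ± 0.36, adjusted p = 0.0159). The list's median was -1.82 and its summed level 713, 944, 299 and 183 CPM. Of 14 fibroblast genes, Igsf10 (ENSMUSG00000036334, chromosome 3, 59316735 to 59344394, minus strand) stood at 11.8, 14.4, 2.41 and 1.94 CPM (-2.58 ± 0.38, adjusted p = 0.00545) and Col14a1, a fibril-associated collagen, at 28.2, 44.7, 9.43 and 3.68 CPM (-2.47 ± 0.43, adjusted p = 0.0159). With an estimated correlation within pools, none of these 5 passed in limma voom, with adjusted p-values of 0.144 (Igsf10) to 0.215 (Bgn). The fibroblast list summed to 1020, 1069, 404 and 398 CPM. Most of each sum was Dcn (decorin), at 726, 764, 257 and 355 CPM. The 12-month pools were less alike than their sums, with a mean log2 CPM over the list of 3.35 in A1 and 1.87 in A2. The chemokine gene Cxcl12 (23.1, 42.6, 10.4 and 5.61 CPM, -2.03 ± 0.38, adjusted p = 0.0159) and the anthrax toxin receptor gene Antxr1 (19.4, 48.7, 11.2 and 5.81 CPM, -2.00 ± 0.39, adjusted p = 0.0182) fell too. The lowest counts were those of Fmod (fibromodulin), 104 at 3 and 4 at 12 months (-4.38 ± 0.75, adjusted p = 0.0153), and Pygo1, a Wnt co-factor, 47 and 3. The scaled ratio of Pygo1 was 13.1 with a counting interval of 4.21 to 65.7 (95%, exact binomial).

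Most fallen genes had their highest level outside the luminal fraction. At 3 months 23 of the 30 were more than 4-fold higher in basal or stromal libraries than in luminal ones, as were 17 of the 85 risen genes and 18.6% of all genes tested. Myh11 had 3198 and 2133 CPM in basal libraries of F79 and F81, Sparc 4675 and 3366 CPM in stromal ones, and Igsf10 474 and 385 CPM in stromal ones. In the luminal libraries the basal, matrix and fibroblast lists also summed lower at 12 months, in both pools. These lists hold some of the fallen genes themselves (Myh11, Bgn, Postn, Sparc, Igsf10 and Col14a1), so their sums are not independent of the falls. Macrophage genes, of which 0 were called, summed to 33.9, 36.3, 16.7 and 16.3 CPM. Of the 11 macrophage genes tested, none was at 0 at 3 months and 3 and 4 were at 0 in A1 and A2. The part of other cells in the luminal sort in these falls was not tested.

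Of the 7 other fallen genes, 3 were higher in luminal than in basal libraries at 3 months. Pfkfb3, which makes the activator of phosphofructokinase and so drives glycolysis, stood at 342, 345, 164 and 97.2 CPM in luminal cells (-1.40 ± 0.31, adjusted p = 0.0357) and at 70 and 80.2 CPM in 3-month basal cells. Itpripl2 stood at 105, 103, 24.1 and 35 CPM (-1.81 ± 0.34, adjusted p = 0.0159). Isg20, an interferon-induced exonuclease gene, stood at 22.1, 41.6, 5.82 and 6.77 CPM (-2.33 ± 0.53, adjusted p = 0.0412). No other gene of the energy lists was called: 0 of 14 glycolysis, 0 of 16 fatty acid oxidation and 0 of 19 nuclear oxidative phosphorylation genes, with medians of 0.28, -0.03 and -0.11. The 12 tested genes of the mitochondrial genome had a median of 0.86 with 0 called. Of these, 8 had both 12-month libraries above both 3-month ones, as did 22% of all genes tested. Their summed level was 17865, 24492, 37649 and 38521 CPM. Among them mt-Co1, a subunit of cytochrome c oxidase, stood at 3300, 3665, 7749 and 10077 CPM (1.36 ± 0.32, adjusted p = 0.0581), and it passed in the voom fit with the pool block (adjusted p = 0.0219). Acsl1, an acyl-CoA synthetase, rose (15, 15.6, 108 and 40.3 CPM, 2.28 ± 0.52, adjusted p = 0.0412).

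**Figure D4:**
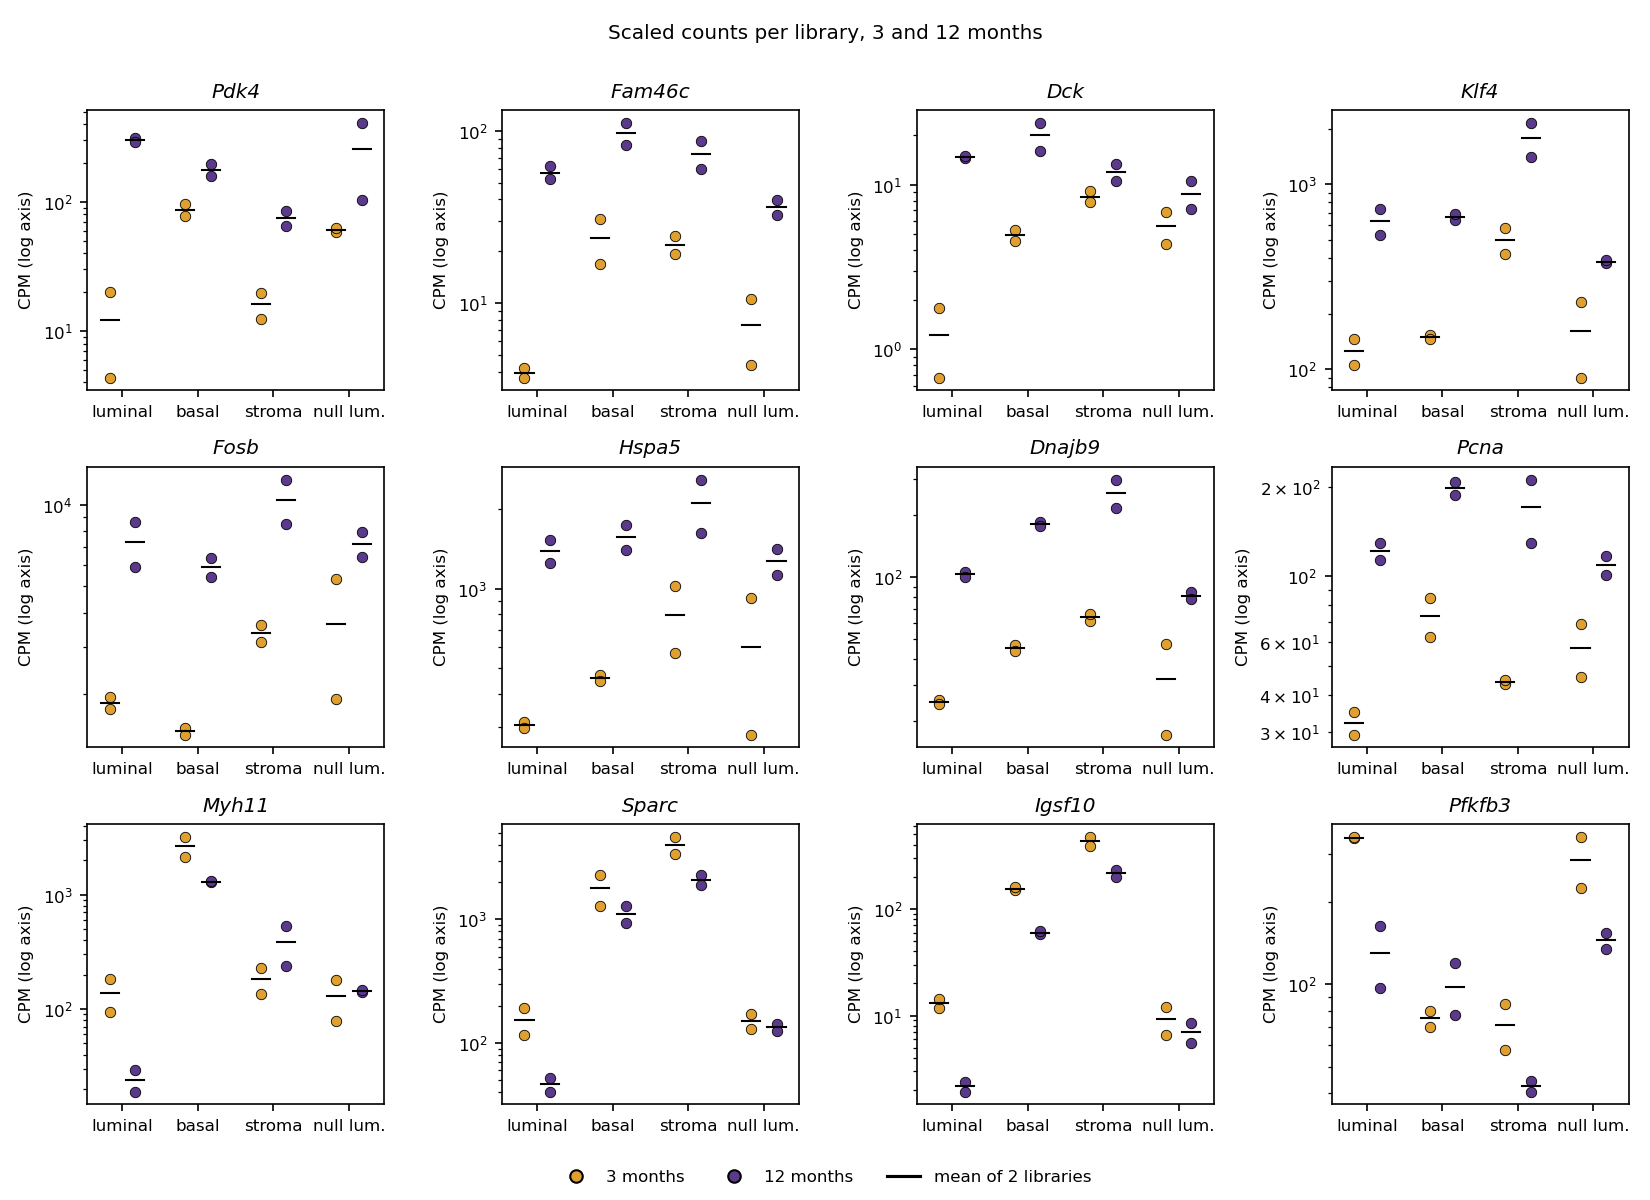
CPM (vertical log axes) of 12 genes in each library of wild-type luminal, basal and stromal cells and of Snai2-null luminal cells at 3 months (orange) and 12 months (purple), with a bar at the mean of 2 libraries. In all 12 genes the wild-type luminal pairs do not overlap, and Sparc and Igsf10 lie far higher in basal and stromal libraries than in luminal ones.

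The genes called in luminal cells were then followed in basal and stromal cells of the same pools. These comparisons use other libraries but the same mice. All 85 risen genes also had a positive fold change in basal cells, where 48.7% of all genes tested did, and all 85 in stroma, where 47.2% did. The median log2 fold change of the 85 was 1.98 in luminal, 1.42 in basal and 1.49 in stromal cells. The choice of these genes by their luminal change favours a larger value in luminal cells. The 12-month libraries lay above the 3-month ones for 81 of the 85 in basal cells (22.8% of all genes) and for 81 in stroma (20%). Of the 85, 18 were called in basal cells, which is 21.2% of the luminal and 36% of the basal rises, and 0.29% of all genes were called there. In stroma 19 were called, 22.4% of the luminal and 57.6% of the stromal rises, against 0.191% of all genes. Pcna, Dnajb9, Slbp (a histone messenger RNA binding protein) and Tob1 (an antiproliferative adaptor) were among those called in all 3 populations.

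The fallen genes had a median log2 fold change nearer 0 in the other populations. It was -0.86 in basal cells and -0.30 in stroma, against -2.11 in luminal cells, and 28 and 21 of the 30 were negative. A deeper luminal value is favoured by the choice of these genes by their luminal change, so these medians do not show falls particular to luminal cells. Spaca6 was the 1 fallen gene also called in basal cells (0.029% of all genes fell there), and Apold1 the 1 also called in stroma (0.0232%). Cxcl12, for example, gave -2.03 ± 0.38 in luminal, -0.37 ± 0.34 in basal and -0.27 ± 0.34 in stromal cells.

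Tests of the difference itself called no gene. The contrast of the luminal with the basal change gave 0 of 17234 genes (0%), 601 at an unadjusted p under 0.05 (3.49%), and a smallest adjusted p of 0.406. The contrast with stroma also gave 0, with 423 genes (2.45%) unadjusted and a smallest adjusted p of 0.87. For Pdk4 the rise was larger in luminal than in basal cells by 3.59 ± 0.81 (adjusted p = 0.581), and for Ctgf by 3.08 ± 0.80 (adjusted p = 0.834). Ctgf was already at 189 and 87.2 CPM in 3-month basal libraries and at 156 and 158 CPM in 12-month ones. For Fosb the difference was -0.03 ± 0.54.

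Since luminal and basal libraries of a pool come from the same mice, the contrast was also fitted to these 8 libraries with the pool as a replicate block. That fit called 213 of the 14152 genes it tested, 23 with the higher and 190 with the lower change in luminal cells. They included 7 of the 85 luminal rises and 3 of the 30 luminal falls. Among these were Pdk4 (3.76 ± 0.49, adjusted p = 0.00562), Ctgf (2.93 ± 0.40, adjusted p = 0.00202) and Fgd5 (-3.37 ± 0.53, adjusted p = 0.00387). The same 8 libraries without the block gave 37 genes, and limma voom with the pool as a replicate block on all 24 gave 0 (smallest adjusted p 0.273). Markers of other cells moved in the basal libraries. In the order F79, F81, A1, A2, endothelial genes summed there to 320, 194, 619 and 831 CPM, luminal epithelial genes to 1303, 1151, 1917 and 1949 CPM, and basal genes to 16802, 10587, 5929 and 6971 CPM. The 190 genes included the endothelial genes Pecam1, Vwf and Cdh5 and the luminal genes Krt19, Prlr and Csn3. The part of those cells in this contrast was not tested. DESeq2 called 12 genes for luminal against basal and 6 for luminal against stroma.

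**Figure D5:**
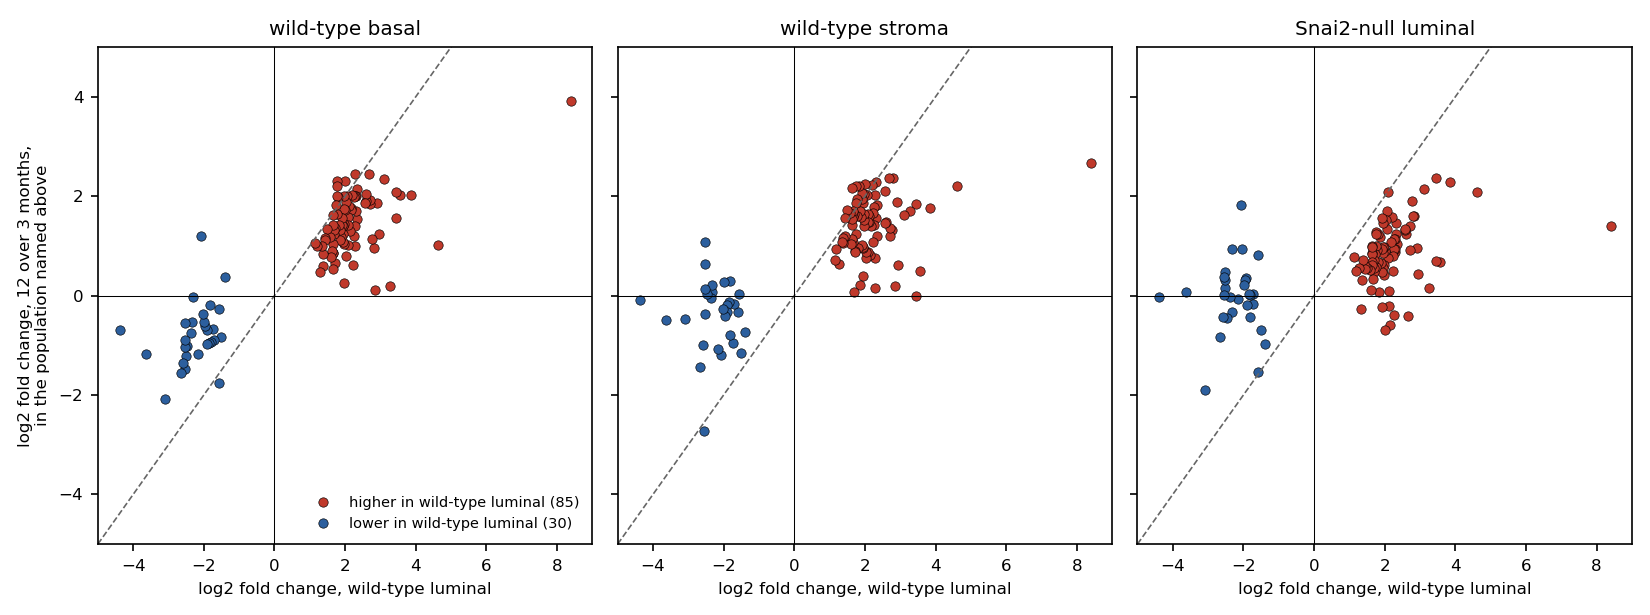
Log2 fold change with age (12 over 3 months) of the 115 called genes in wild-type basal, stromal and Snai2-null luminal cells (vertical axes) against wild-type luminal cells (horizontal axes), with the dashed line marking equal change. The risen genes (red) lie above 0 in all 85 cases in basal and stromal cells and in 78 in null luminal cells, mostly below the dashed line. The choice of genes by the wild-type luminal change favours that side of the line.

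In Snai2-null luminal cells, sorted from other mice, the same contrast called no gene by edgeR, with 999 (5.8%) at an unadjusted p under 0.05. Of the 85 genes risen in wild type 78 had a positive fold change (50.3% of all genes did), with a median of 0.87, and in 67 the 12-month libraries lay above the 3-month ones (20.2% of all genes). Fam46c stood at 4.36, 10.6, 39.6 and 32.5 CPM in F82, F84, A5 and A6 (2.29 ± 0.49, adjusted p = 0.353), and Pdk4 at 59, 62.7, 410 and 103 CPM (2.08 ± 0.58, adjusted p = 0.454). Both 3-month null libraries held more Pdk4 than both 3-month wild-type ones. Of the 30 fallen genes 14 were negative, with a median of 0.01, and Myh11 stood at 181, 78.9, 142 and 146 CPM.

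No gene passed the test of the difference between the wild-type and null changes (0%, smallest adjusted p 0.104, for Fgd5 and Cxcl12), while 968 genes (5.62%) had an unadjusted p under 0.05. Among the 115 called genes 70 did, 44 with the larger rise and 26 with the deeper fall in wild type, a direction that the choice of genes by the wild-type change favours. The 3-month null libraries F82 and F84 were the smallest of the series, and they differed by more than 4-fold in 1038 genes. Hbegf, for example, stood at 28.5 CPM in F82 and 161 CPM in F84. Without F82 the difference was called in 6 genes, and DESeq2 called 16.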

How the data were processed

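RNA of sorted mammary cells was measured in 26 libraries of 13 groups. The libraries were made from 5 ng of RNA by Ovation V2 amplification and sequenced on an Illumina HiSeq, per the labels' protocols. Amplification from few cells adds noise at low levels. The deposited values are whole-number counts per gene for 45706 genes. TopHat2 2.0.13, the GRCm38 build and HTSeq are named in the submitters' processing notes; HTSeq's strand setting is not given in the sources used here, so overlapping genes may share reads.

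Libraries were grouped by genotype, age and fraction from their titles. The filter filterByExpr of edgeR (minimum count 10, minimum total 15) kept 17234 genes. Scaling was by TMM, and a robust quasi-likelihood fit with 1 coefficient per group used 24 libraries, all but the A5 libraries labelled luminal-basal and stromal, whose markers go against their labels. An adjusted p under 0.05 was called. Log2 CPM values used a prior count of 2. Positions are from GENCODE vM21. Members, lists, motifs and tests were chosen with earlier results of these data known. Named genes are the 12 largest rises and falls whose ages do not overlap and whose higher group averages 10 CPM or more, up to 6 called members per list, or the 3 of highest level, and 12 fixed genes; other genes named were chosen after their values were seen. The fitting script was tested on simulated data, with genes of a mean count above 50 changed in wild-type luminal cells. It recovered 4 of 50 genes changed 2-fold, 27 of 50 changed 4-fold and 45 of 50 changed 8-fold. Of 16484 unchanged genes it called 10. A gene not called here may therefore still have changed 2-fold. Same-numbered pools are the same mice, and their libraries' deviations from group means correlated at r = 0.0129 to 0.278 in wild type, with 6 of 12 pairs above 0.1. With 2 libraries per group, both pools of an age give the same r by construction, so the pairs are not separate values. Alternatives were RLE, no filter, DESeq2 1.42.0, limma voom, other library sets, leaving out libraries, mitochondrial genes left out, and pool blocks. The fits ran in edgeR 4.0.16 and limma 3.58.1 under R 4.3.3, and the figures in matplotlib 3.10.9 under Python 3.11.15.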

Additional observations from a re-analysis of the deposited data

How the results depend on the processing

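The luminal count of 115 genes moved with the libraries in the fit, which also changed the genes tested and the scaling: 3 genes were called with all 26 libraries, 526 with the 12 wild-type libraries (all 115 among them) and 550 with the 4 compared (108 of the 115). Without a low-count filter 478 were called and with DESeq2 248, the latter including all 115. RLE scaling gave 86 (84 of the 115) and leaving out mitochondrial genes 88 (86 of the 115). Pools are nested in age, so the replicate block entered as a correlation in limma voom, 0.116, and gave 47 genes against 49 without the block. Leaving out 1 luminal library at a time gave 1 to 13 genes, with the lone library assumed to vary like the other groups. Sign changes among the 115 numbered 0 in every setting.

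The difference between the luminal and basal changes, called in 0 genes, gave 59 in the 12 wild-type libraries, 37 in the 8 compared, 163 without the filter, 12 with DESeq2, 213 with the pool as a fixed replicate block, and 0 in limma voom with the block. The difference from stroma gave 76 without the filter, 6 with DESeq2, 0 with the fixed replicate block, and 0 to 17 with 1 library left out (17 without stromal A1, all with the lower change in luminal cells). The difference from null luminal cells gave 2 in the libraries compared, 200 without the filter, 16 with DESeq2, and 0 to 6 with 1 library left out. With a luminal library of A1 or A2 left out, the difference from basal cells stayed at 0. The cause of these moves was not tested. Depth limits the low genes: the 4 luminal libraries hold 5523449 to 6751898 counts.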

Other observations

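The 12-month pools A1 and A2 differed in genes outside the lists described. A1 held epidermal genes that were low in the other luminal libraries: Krt10, a keratin of cornifying epidermis, stood at 41.1 CPM in A1 and 0.387 CPM in A2, and Krt77 at 36.7 and 0 CPM. Klk7, a skin protease, stood at 17.7 and 0 CPM, and the 3-month libraries had 0.161 and 0.336 CPM of it. Lao1, an amino acid oxidase of milk, stood at 232 CPM in A1 and 1.16 CPM in A2, and Igkc, the immunoglobulin kappa constant gene, at 22.3 and 0 CPM. In A2 the dipeptidase gene Dpep2 stood at 41.6 CPM against 0 in A1, 17.7 in F79 and 9.57 in F81, and the calcitonin gene Calca at 62.9 CPM against 2.61 in A1. These are single libraries, chosen after their values were seen, with no test.

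Among antigen presentation genes 1 was called. H2-K1, a class I gene, rose from 408 and 326 to 923 and 695 CPM (1.14 ± 0.26, edgeR adjusted p = 0.0403), the 1 called gene of 15. The class II gene H2-Aa stood at 8.55, 12.3, 0.602 and 1.55 CPM in F79, F81, A1 and A2 (-3.24 ± 1.02, adjusted p = 0.226), and H2-Eb1 at 1.29, 4.7, 0 and 0.581 CPM. The pan-leukocyte list summed to 13.4, 18.6, 7.83 and 3.68 CPM in the same libraries. H2-K1 belongs to a family of near-identical genes, among which reads may be split.

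The length of the called genes was also read from the annotation, and exons were counted in the transcript of each gene with the most exons. The 78 risen protein-coding genes had a median span of 13594 bases and 7 exons, the 30 fallen ones 29306 bases and 13 exons, and the 14358 protein-coding genes tested 24972 bases and 9 exons. A span under 10 kb was found in 38.5%, 16.7% and 23.9% of them. This is a description of the called genes, with no test.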
